A study of Mus musculus with 10 samples.

Results

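The RNAs of the translation initiation and elongation factors were followed in ribosome-bound RNA of mouse striatal neurons that express the dopamine D1 receptor. Members were all gene rows whose symbol began with Eif and a digit from 1 to 6 or with Eef and 1 or 2, which gave 62 of 32531 genes once Eif2s3x, Eif2s3y and symbols of the pseudogene form were left out. The mice were adults of the Drd1-EGFP/Rpl10a line CP73, given as Drd1-TRAP CP73 on an FVB/N-Swiss Webster x C57BL/6 background and bred into C57BL/6 for at least 9 generations. In this line the Drd1 promoter drives a ribosomal protein fused to EGFP, so that polysomes of the neurons that use this promoter can be pulled down from whole striatum with antibodies to EGFP (TRAP, translating ribosome affinity purification). The 3 groups of pull-downs were saline self-administration, cocaine self-administration (short access, intravenous) and yoked control, with 3 libraries each, and 1 further library held total input RNA of whole striatum. All groups carried the transgene. The labels do not give the agent that the yoked mice received, the treatment behind the input, or whether animals were pooled, and they do not say whether each library of a group is a different animal, so the p-values below measure only the spread between these libraries.

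Translation starts when eIF2 brings the initiator tRNA to the small ribosomal subunit, eIF4 factors load the messenger at its cap, eIF3 holds the complex together and eIF1, eIF1A and eIF5 control the choice of the start codon. Elongation then needs eEF1A to deliver each tRNA and eEF2 to move the ribosome on. In neurons the kinases of eIF2, the eIF4E-binding proteins and the eEF2 kinase slow these steps when they are active, and protein synthesis near synapses is known to depend on them. RNA bound to ribosomes gives the factors' own messengers, and not the amount, the phosphorylation or the activity of the proteins.

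Pull-down libraries held between 12528806 and 45242175 gene counts, and the input library 40519976. The precursor ribosomal RNA Rn45s took 10.5% to 20.5% of gene counts in pull-downs and 12.5% in the input. Levels are gene counts scaled to a library total of 1000000 (CPM), which are not corrected for transcript length and are compared between libraries, never between genes. The 6 D1 neuron markers together reached 2166 to 3212 CPM in pull-downs against 1079 CPM in the input, and each was above the input in all 9. The 5 D2 neuron, 6 astrocyte, 6 oligodendrocyte and 5 microglia markers were each below the input in all 9, with sums of 144 to 486 CPM against 1439 CPM for D2 neurons, 141 to 811 against 2151 for astrocytes, 183 to 940 against 2474 for oligodendrocytes and 3.49 to 22.2 against 62.7 for microglia, and with yoked 2 the highest pull-down in each of these sums. Of 6 endothelial and mural markers, 5 were below the input in all 9, with sums of 1.99 to 10.1 CPM against 27.9 CPM. Markers of cortical glutamatergic neurons summed to 20.2 to 112 CPM against 31.2 CPM, on both sides of the input. Sequencing lanes followed the groups (saline in lane 3, cocaine in lane 1, yoked in lane 2, input in lane 5), so effects of lane and of group cannot be told apart.

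More of the translation factor RNAs than of all genes lay above the input in every pull-down. The members took 0.555% to 0.618% of gene counts in pull-downs and 0.504% in the input. Of the 59 members with a mean of at least 10 counts, 10 were at least 1.5-fold above the input in all 9 pull-downs (16.9%, against 8.95% of 14907 genes) and 2 were at least 1.5-fold below it in all 9 (3.39%, against 17.2%). The median ratio to the input was 1.28 for the members and 0.950 for all genes, from log2 ratios with 0.5 CPM added to both sides. By library, the members' median ratio ran from 1.22 in yoked 3 to 1.35 in cocaine 2. With 1 input library these ratios have no replicate check on the input side and carry no test. In bulk RNA of this kind fewer cells of a type and less RNA per cell cannot be told apart. Without the restriction on size, 33 members were above the input in all 9 pull-downs (55.9%, against 28% of all genes) and 7 of 59 were below it in all 9 (against 35.3% of all genes). Eif4e1b had 0 counts in all 10 libraries. Eif4ebp3 had 0 counts in the pull-downs, where the limit of 3 counts lies at 0.0663 to 0.239 CPM, and 5 counts in the input. Eif4ebp1, an eIF4E-binding protein, had 0 to 7 counts per pull-down against 33 for the input, and was not compared. Its values were 0.0352, 0.160 and 0.0428 in saline 1 to 3, 0.0608, 0.209 and 0.155 in cocaine 1 to 3, and 0, 0.115 and 0.155 in yoked 1 to 3, against 0.814 CPM in the input, with all pull-downs below the input.

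**Figure D1:**
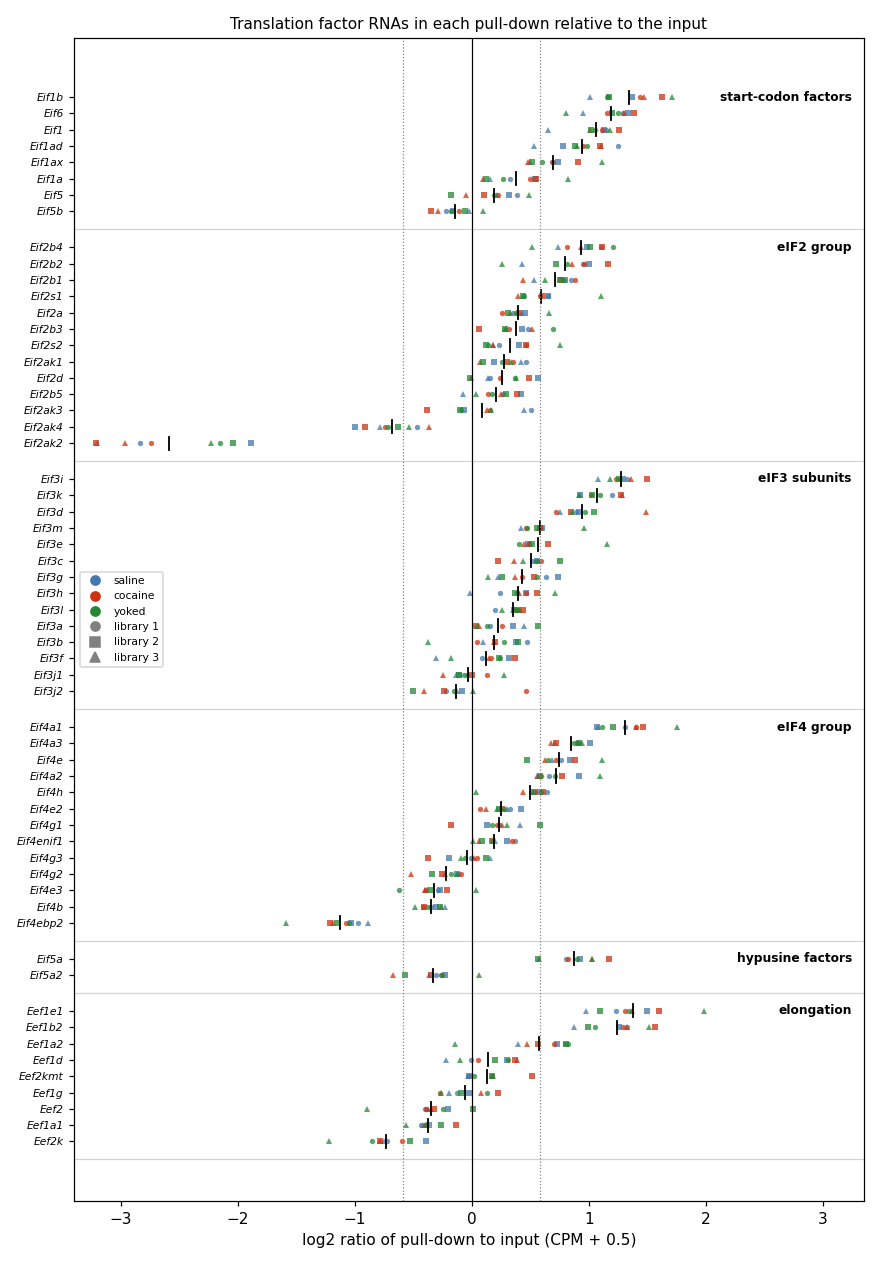
Log2 ratio of each pull-down to the single input library for 59 translation factor RNAs, sorted by role and by mean. Points are libraries (colour, group; shape, library number), bars are means over 9 pull-downs and dotted lines mark 1.5-fold. Eef1e1, Eif1b and Eif4a1 lie farthest right, and Eif2ak2 and Eif4ebp2 lie left of the lower dotted line in all 9.

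The role group named start-codon factors took 8 members: Eif1, Eif1a, Eif1ad, Eif1ax, Eif1b, Eif5, Eif5b and Eif6. Not all of them act in start-codon choice, Eif6 among these. The median ratio of the group was 1.76, the highest of the 6 role groups. Eif1b, Eif6 and Eif1 passed 1.5-fold in all 9 (37.5%, against 8.95% of all genes). Eif1b, a close relative of the scanning factor eIF1, stood at 55.8, 64.8 and 50.4 in saline 1 to 3, 68.2, 77.4 and 69.8 in cocaine 1 to 3, and 56.3, 56.6 and 82.2 in yoked 1 to 3, against 24.8 CPM in the input. Every pull-down was above the input, with yoked 3 the highest and saline 3 the lowest, and the mean ratio was 2.54. Eif1, whose product keeps the scanning ribosome from starting at the wrong codon, stood at 176, 174 and 125 in saline 1 to 3, 172, 190.3 and 159.8 in cocaine 1 to 3, and 165, 161 and 181 in yoked 1 to 3, against 79.2 CPM in the input, a mean ratio of 2.09. Saline 3 was lowest, apart from the other 8. Eif6, which keeps free large ribosomal subunits from joining small ones, had a mean ratio of 2.28 with 29 ± 3.69 CPM (SD, n = 9) against 12.3 CPM in the input. The near-identical pair Eif1a and Eif1ax, which can share reads, had mean ratios of 1.30 and 1.62. The GTPase-activating factor Eif5 (ratio 1.14) and the subunit-joining GTPase Eif5b (ratio 0.906) had points on both sides of the input. Eif1ad had a mean ratio of 1.92 and was above the input in all 9.

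In the eIF2 group the exchange factor was above the input and the kinases were divided. The 5 subunits of eIF2B, the factor that reloads eIF2 with GTP, had a median ratio of 1.64, and 4 of them were above the input in all 9. Eif2b4 was the highest at 1.91, Eif2b2 followed at 1.74 and Eif2b1 at 1.64, and Eif2b3 (1.30) and Eif2b5 (1.16) were nearer the input. Eif2a and Eif2d, which can deliver the initiator tRNA without eIF2, had mean ratios of 1.32 and 1.2, and the eIF2 subunit Eif2s2 had 1.26. Eif2s1, the eIF2 subunit that the stress kinases phosphorylate, stood at 40.5, 40.6 and 34.8 in saline 1 to 3, 38.7, 39.1 and 33.9 in cocaine 1 to 3, and 35.0, 34.8 and 55.7 in yoked 1 to 3, against 25.6 CPM in the input. All 9 values were above the input (mean ratio 1.51), and yoked 3 was far above the other pull-downs. The 4 kinases of eIF2 had a median ratio of 0.812 and lay on both sides of the input. Eif2ak2 (PKR, activated by double-stranded RNA) stood at 0.422, 1.28 and 0.214 in saline 1 to 3, 0.487, 0.209 and 0.342 in cocaine 1 to 3, and 0.984, 1.10 and 0.906 in yoked 1 to 3, against 6.10 CPM in the input. All 9 were below the input, at a mean ratio of 0.166, and rested on 5 to 48 counts per pull-down. At this level the size of the ratio depends on the 0.5 CPM added, and it was 0.0887 with nothing added, 0.10 in the edgeR fit and 0.325 with 2 CPM added. Eif2ak4 (GCN2, activated by amino acid shortage) stood at 7.81, 5.27 and 6.20 in saline 1 to 3, 6.39, 5.62 and 8.42 in cocaine 1 to 3, and 6.5, 6.96 and 7.47 in yoked 1 to 3, against 11 CPM in the input, below the input in all 9 at a mean ratio of 0.622. Eif2ak1 (HRI, the haem-regulated kinase) stood at 98.8, 81.9 and 95.9 in saline 1 to 3, 91.6, 88.3 and 75.4 in cocaine 1 to 3, and 85.7, 76.4 and 90.5 in yoked 1 to 3, against 71.6 CPM in the input, above the input in all 9 at a mean ratio of 1.21. Eif2ak3 (PERK, the kinase of the endoplasmic reticulum) stood at 9.82, 6.47 and 9.45 in saline 1 to 3, 7.63, 5.08 and 7.46 in cocaine 1 to 3, and 6.32, 6.29 and 7.65 in yoked 1 to 3, against 6.79 CPM in the input. Its pull-downs lay on both sides of the input (ratio 1.06). The D2 neuron, astrocyte, oligodendrocyte and microglia markers were lower in the pull-downs together with Eif2ak2, and their part in these ratios was not tested.

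The 14 eIF3 subunits had a median ratio of 1.33, and 9 of them were above the input in all 9 pull-downs (64.3%, against 28% of all genes). Eif3i stood at 142, 139 and 119.5 in saline 1 to 3, 133, 160.1 and 146 in cocaine 1 to 3, and 137, 136 and 129 in yoked 1 to 3, against 56.4 CPM in the input. All 9 pull-downs were more than 2-fold above the input, with cocaine 2 the highest and saline 3 the lowest, and the mean ratio was 2.42. Eif3k followed at 2.11 and Eif3d, a subunit that can itself bind the cap, at 1.92. These 3 passed 1.5-fold in all 9. The core scaffold subunits were nearer the input, with 1.17 for Eif3a, 1.14 for Eif3b and 1.42 for Eif3c. The subunits Eif3e, Eif3f, Eif3g, Eif3h, Eif3l and Eif3m had mean ratios between 1.09 (Eif3f) and 1.5 (Eif3m). The lowest were Eif3j1 (0.977) and its near-identical copy Eif3j2 (0.908, at 0.115 to 0.700 CPM). The side of the input on which Eif3j1 and Eif4g3 fell changed with scaling, since both were just above it with TMM-scaled library sizes.

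The eIF4 group divided between helicases and binding proteins. All 3 members of the helicase family were above the input in all 9, and Eif4a1 and Eif4a3 passed 1.5-fold. Eif4a1, the cap-complex helicase that unwinds messengers, stood at 58.0, 48.8 and 49.3 in saline 1 to 3, 61.7, 64.5 and 61.8 in cocaine 1 to 3, and 50.5, 54.0 and 78.9 in yoked 1 to 3, against 23.1 CPM in the input. Every pull-down was more than 2-fold above the input, and the mean ratio was 2.48. Eif4a2, its paralogue, stood at 389, 465 and 362 in saline 1 to 3, 371, 421 and 365 in cocaine 1 to 3, and 403, 368 and 525 in yoked 1 to 3, against 246 CPM in the input, a mean ratio of 1.65. Eif4a3, the helicase of the exon junction complex, had a mean ratio of 1.80. The cap-binding relative Eif4e2 and the eIF4E transporter Eif4enif1 were nearer the input, at 1.19 and 1.14. Eif4e, which binds the cap, stood at 101, 107 and 96.1 in saline 1 to 3, 98.7, 109.95 and 92.2 in cocaine 1 to 3, and 93.8, 82.7 and 129 in yoked 1 to 3, against 59.6 CPM in the input, above the input in all 9 (ratio 1.68). Eif4e3, an atypical relative, stood at 25.4, 25.6 and 23.4 in saline 1 to 3, 23.6, 26.8 and 23.4 in cocaine 1 to 3, and 20.02, 24.1 and 31.9 in yoked 1 to 3, against 31.1 CPM in the input; 8 pull-downs were below the input and yoked 3 above it. Eif4ebp2, the eIF4E-binding protein known as the main form in brain, stood at 41.1, 39.5 and 43.7 in saline 1 to 3, 38.4, 34.8 and 35.3 in cocaine 1 to 3, and 39.0, 36.3 and 26.7 in yoked 1 to 3, against 81.2 CPM in the input. All 9 pull-downs were below the input at a mean ratio of 0.458, and yoked 3 was the lowest. Among the scaffolds Eif4g1 had a mean ratio of 1.18, Eif4g3 of 0.971 and Eif4g2, which lacks the eIF4E-binding part, of 0.859. Eif4g3 stood at 148, 130.1 and 166 in saline 1 to 3, 153, 115 and 151 in cocaine 1 to 3, and 143, 162 and 139 in yoked 1 to 3, against 149 CPM in the input, on both sides of it. Eif4g2 was below the input in all 9, at 832, 828 and 769 in saline 1 to 3, 849, 759 and 627 in cocaine 1 to 3, and 796, 715 and 827 in yoked 1 to 3, against 903 CPM in the input. The helper proteins of the helicase lay on opposite sides, with Eif4h at 1.41 and Eif4b at 0.787. Eif4b stood at 193, 199 and 211 in saline 1 to 3, 185, 186 and 205 in cocaine 1 to 3, and 190.3, 205 and 176 in yoked 1 to 3, against 247 CPM in the input, with all 9 below the input.

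The elongation factors lay on both sides of the input, with a median ratio of 1.09 and 2 of 9 above the input in every pull-down (22.2%, against 28% of all genes). Eef1e1, a member of the complex of tRNA synthetases, had the highest mean ratio of all members, 2.60, at 23.0, 27.7 and 19.1 in saline 1 to 3, 24.2, 29.8 and 25.2 in cocaine 1 to 3, and 24.8, 20.8 and 38.8 in yoked 1 to 3, against 9.45 CPM in the input. Eef1b2, which reloads eEF1A with GTP, stood at 126, 120.4 and 92.3 in saline 1 to 3, 124, 149.9 and 126 in cocaine 1 to 3, and 105, 100.4 and 144 in yoked 1 to 3, against 50.1 CPM in the input, a mean ratio of 2.37. Both passed 1.5-fold in all 9. The other subunits of the same exchange complex were close to the input, with 1.10 for Eef1d and 0.959 for Eef1g. Eef2 stood at 309.6, 353 and 314 in saline 1 to 3, 311, 326 and 321 in cocaine 1 to 3, and 343, 411 and 218 in yoked 1 to 3, against 408 CPM in the input; 8 pull-downs were below the input and yoked 2 just above it (mean ratio 0.783). Eef2k, the calcium-dependent kinase that stops eEF2, stood at 12.1, 15.4 and 11.9 in saline 1 to 3, 13.3, 11.6 and 11.6 in cocaine 1 to 3, and 11, 14.0 and 8.47 in yoked 1 to 3, against 20.4 CPM in the input. It was below the input in all 9, at a mean ratio of 0.600, and lowest in yoked 3. Eef2kmt, which methylates eEF2, had a mean ratio of 1.09.

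The 2 forms of eEF1A lay on opposite sides of the input. Eef1a1, the form made in most cells, stood at 239.9, 252 and 244 in saline 1 to 3, 247, 295 and 246 in cocaine 1 to 3, and 248, 269.9 and 219 in yoked 1 to 3, against 325 CPM in the input. All 9 pull-downs were below the input (mean ratio 0.772). Eef1a2, the form that replaces it in mature neurons and muscle, stood at 235, 224 and 177 in saline 1 to 3, 219.5, 200.1 and 187 in cocaine 1 to 3, and 239, 236 and 122 in yoked 1 to 3, against 135 CPM in the input. It was above the input in 8 pull-downs and below it in yoked 3 (mean ratio 1.49). Messengers of several elongation factors are known to start with a C and a run of pyrimidines (a 5′ terminal oligopyrimidine start), through which mTORC1 controls their translation, and mTORC1 is known to be active in neurons. The bases around the annotated start are shown for both forms of eEF1A, of which Eef1a1 is a textbook case, and for Eif3f and Eif3l, the other members on the textbook list with such a run. Each line gives 15 bases before and 15 from the RefSeq start (GRCm38.p6, the build called mm10 in the submitters' processing notes), 5′ to 3′ on the gene's strand, and capitals mark runs that open with a C within 5 bases of the start and go on with at least 4 bases that are each C or T. The windows are chr9:78481710-78481739 (minus strand) for Eef1a1, chr2:181157001-181157030 (minus) for Eef1a2, chr7:108934400-108934429 (plus) for Eif3f and chr15:79075208-79075237 (plus) for Eif3l.
Eef1a1: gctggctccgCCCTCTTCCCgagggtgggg
Eef1a2: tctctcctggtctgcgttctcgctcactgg
Eif3f: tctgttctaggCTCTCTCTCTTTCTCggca
Eif3l: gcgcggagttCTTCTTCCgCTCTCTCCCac
Eef1a1 and the eIF3 pair have such a run in this window and Eef1a2 has none. Of 7 members on the textbook list with a promoter in the RefSeq table, 3 had such a run. Eef1b2, Eef2, Eif3a and Eif4b, also on that list, had none. Of all 48 members with a promoter there, 12 had such a run (25%), against 23.9% of 11120 genes measured here with the same window. The search was on the gene's own strand only. Exactly at the annotated start, 1 of the 48 members had it (2.08%), against 3.04% of those genes. The 11 members listed from textbook knowledge as oligopyrimidine genes had a median ratio to the input of 1.10, and the other 48 members compared had 1.31. A match describes letters at an annotated start and is not a mapped start of transcription in these neurons.

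The balance of paired factors gave ratios in which library totals cancel, apart from the 0.5 CPM added to each level. It lay on 1 side of the input in all 9 pull-downs for 7 of 8 pairs. All 9 values share the single input, and no share over other gene pairs is given. For single genes, 28% were above and 35.3% below the input in all 9. The Eef1a2 to Eef1a1 ratio was 1.93-fold that of the input (range 1.34 to 2.35), lowest in yoked 3. Eif5a2 to Eif5a, the pair whose products carry the modified amino acid hypusine, was at 0.435 of the input ratio, with Eif5a at 257, 279 and 219 in saline 1 to 3, 260.2, 332 and 299.5 in cocaine 1 to 3, and 274, 217 and 300.3 in yoked 1 to 3, against 147 CPM in the input. Eif5a2 itself stood at 102, 108 and 97.8 in saline 1 to 3, 105, 98.8 and 78.8 in cocaine 1 to 3, and 106, 84.6 and 132 in yoked 1 to 3, against 126 CPM in the input, with yoked 3 the only pull-down above the input. Eif4e3 to Eif4e was at 0.476 of the input ratio, Eif4a2 to Eif4a1 at 0.663, Eif4g2 to Eif4g1 at 0.729 and Eif4g3 to Eif4g1 at 0.825. Eif1b to Eif1 was at 1.22 of the input ratio (range 1.01 to 1.44), so that its lowest pull-down was almost at the input. The remaining pair, Eif4ebp2 to Eif4ebp1, stood on few Eif4ebp1 counts, below the 0.5 CPM added in every pull-down, and fell on both sides. Eef1a1, Eif4a1 and Eif5a have near-identical processed copies in the mouse genome, and counting that leaves out reads with several places can lower their level in every library.

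**Figure D2:**
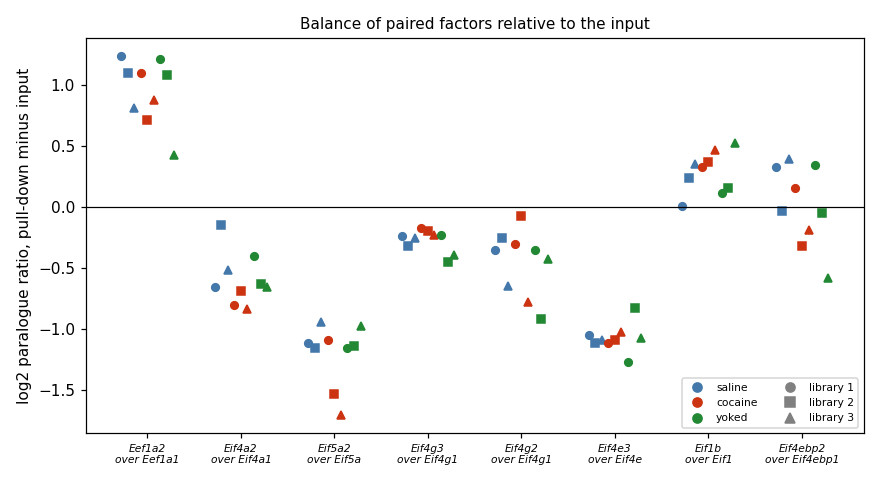
Log2 ratio of the CPM of paired factors in each pull-down minus the same log2 ratio in the input (0.5 CPM added), for 8 pairs. Points are libraries; Eef1a2 over Eef1a1 and Eif1b over Eif1 lie above 0 in all 9, 5 pairs lie below 0 in all 9, and Eif4ebp2 over Eif4ebp1 lies on both sides.

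Other genes of the pathway were described from lists, whose median ratios to the input ran from 1.05 to 1.26. Of 14 genes of mTORC1 and its regulators, 1 passed 1.5-fold upward in all 9 (7.14%, against 8.95% of all genes) and none downward (against 17.2%), and the median ratio was 1.11. That gene was Rheb, the GTPase that switches mTORC1 on, at 110 ± 25 CPM (SD, n = 9) against 54.8 CPM in the input. Of 10 stress-response targets, 1 passed upward, or 10% (Asns, asparagine synthetase, 85.6 ± 8.10 CPM against 37.6 CPM) and none downward, with the lowest of these medians. Of 19 poly(A)-binding, termination, recycling and other factors, 3 passed upward (Mcts1, Denr and Gspt2; 15.8%) and 1 downward (5.26%), with a median of 1.26. Pabpc1, the main cytoplasmic poly(A)-binding protein, was the one below, at 76.7 ± 8.84 CPM against 220.5 CPM.

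Members of short genomic span had the higher ratios. Across genes, the rank correlation of genomic span with the log2 ratio to the input was -0.448 over 59 members and -0.300 over 13990 genes, given as a description since genes share libraries. The 19 members of shortest span among those with at least 50 counts on average (2151 to 10531 bases) had a median ratio of 1.83, and the 19 of longest span (24300 to 215308 bases) had 1.17.

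No translation factor RNA was called between saline, cocaine and yoked pull-downs. This comparison asks whether cocaine self-administration, or the yoked condition, changed the factors' ribosome-bound messengers. With edgeR's quasi-likelihood test, 0 of 59 members passed an adjusted p of 0.05 in any of the 3 comparisons, and neither did any of the 14680 genes tested (0%). The smallest adjusted p among members was 0.999 for cocaine against saline, 0.974 for cocaine against yoked and 0.999 for yoked against saline. DESeq2 and limma-voom called 0 members as well. At an unadjusted p under 0.05, 1 member was higher in cocaine than saline (1.79% of all genes were), 1 was higher (1.36%) and 1 lower (1.22%) in cocaine than yoked, and none reached it between yoked and saline (1.16% of all genes higher, 0.681% lower). A member's log2 fold change had a median standard error of 0.17, and missing the threshold does not show that levels were equal.

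The member at unadjusted p under 0.05 in cocaine against saline was Eif1b, with means of 57.0 ± 7.27 CPM in saline and 71.8 ± 4.93 CPM in cocaine (SD, n = 3 each). All 3 cocaine values (68.2, 77.4 and 69.8) were above all 3 saline values, and yoked 3 at 82.2 was above both groups. The edgeR log2 fold change was 0.39 ± 0.18 (SE), at an unadjusted p of 0.0419 and an adjusted p of 0.999. Eif5a and Eif3h, a subunit of the outer part of eIF3, came next, at 0.30 ± 0.16 and 0.29 ± 0.15. Eif3h was at 63.3, 73.9 and 52.9 in saline 1 to 3, 73.7, 78.6 and 70.8 in cocaine 1 to 3, and 70.1, 68.9 and 87.7 in yoked 1 to 3, against 53.4 CPM in the input, and saline 3 was its lowest library.

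In cocaine against yoked the 2 members were Eif2b2 and Eif2ak2. Eif2b2, an eIF2B subunit, stood at 34.5, 35.8 and 23.8 in saline 1 to 3, 34.6, 40.1 and 32.2 in cocaine 1 to 3, and 31.4, 29.2 and 21.2 in yoked 1 to 3, against 17.6 CPM in the input. All 3 cocaine values were above all 3 yoked values, and saline 3 and yoked 3 were the lowest pull-downs. The edgeR log2 fold change was 0.41 ± 0.18, at an unadjusted p of 0.0405 and an adjusted p of 0.974, and 0.28 without yoked 3. Eif2ak2 was lower in cocaine at -1.51 ± 0.64 (edgeR unadjusted p = 0.0335, adjusted p = 0.974), at means of 0.346 ± 0.139 against 0.997 ± 0.0986 CPM. Astrocyte markers in the same comparison were lower for 6 of 6 genes, oligodendrocyte for 6 of 6, microglia for 5 of 5 and D2 neuron for 5 of 5. Cortical glutamatergic markers were lower for 2 of 4. Endothelial and mural markers were lower for 4 of 5, and none of these markers was called. Their sums ran from 141 to 324 CPM in cocaine and from 154 to 811 in yoked for astrocytes, from 224 to 453 and from 183 to 940 for oligodendrocytes, and from 4.69 to 9.64 and from 3.49 to 22.2 for microglia, and the part of these cells in the Eif2ak2 difference was not tested. Eif3k and Eif4g1 were next among members with at least 50 counts, at 0.20 ± 0.14 and -0.24 ± 0.16. Eif3k stood at 95.0, 78.5 and 78.3 in saline 1 to 3, 83.9, 100.1 and 101 in cocaine 1 to 3, and 88.4, 84.4 and 78.2 in yoked 1 to 3, against 41.1 CPM in the input, with cocaine 1 inside the yoked range. Eif4g1 stood at 79.7, 74.3 and 90.5 in saline 1 to 3, 78.9, 59.9 and 81.0 in cocaine 1 to 3, and 76.4, 102 and 83.6 in yoked 1 to 3, against 67.8 CPM in the input, with overlapping groups. Without cocaine 3 the Eif3k value was 0.13, and without cocaine 2 the Eif4g1 value was -0.11.

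In yoked against saline the smallest unadjusted p-values belonged to Eif3h (0.31 ± 0.15), Eif4ebp2 (-0.25 ± 0.15) and Eif4a1 (0.28 ± 0.18), all with edgeR adjusted p of 0.999. In each of them yoked 3 was the highest or the lowest of all pull-downs. Without that library the log2 fold changes were 0.16, -0.12 and 0.02.

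**Figure D3:**
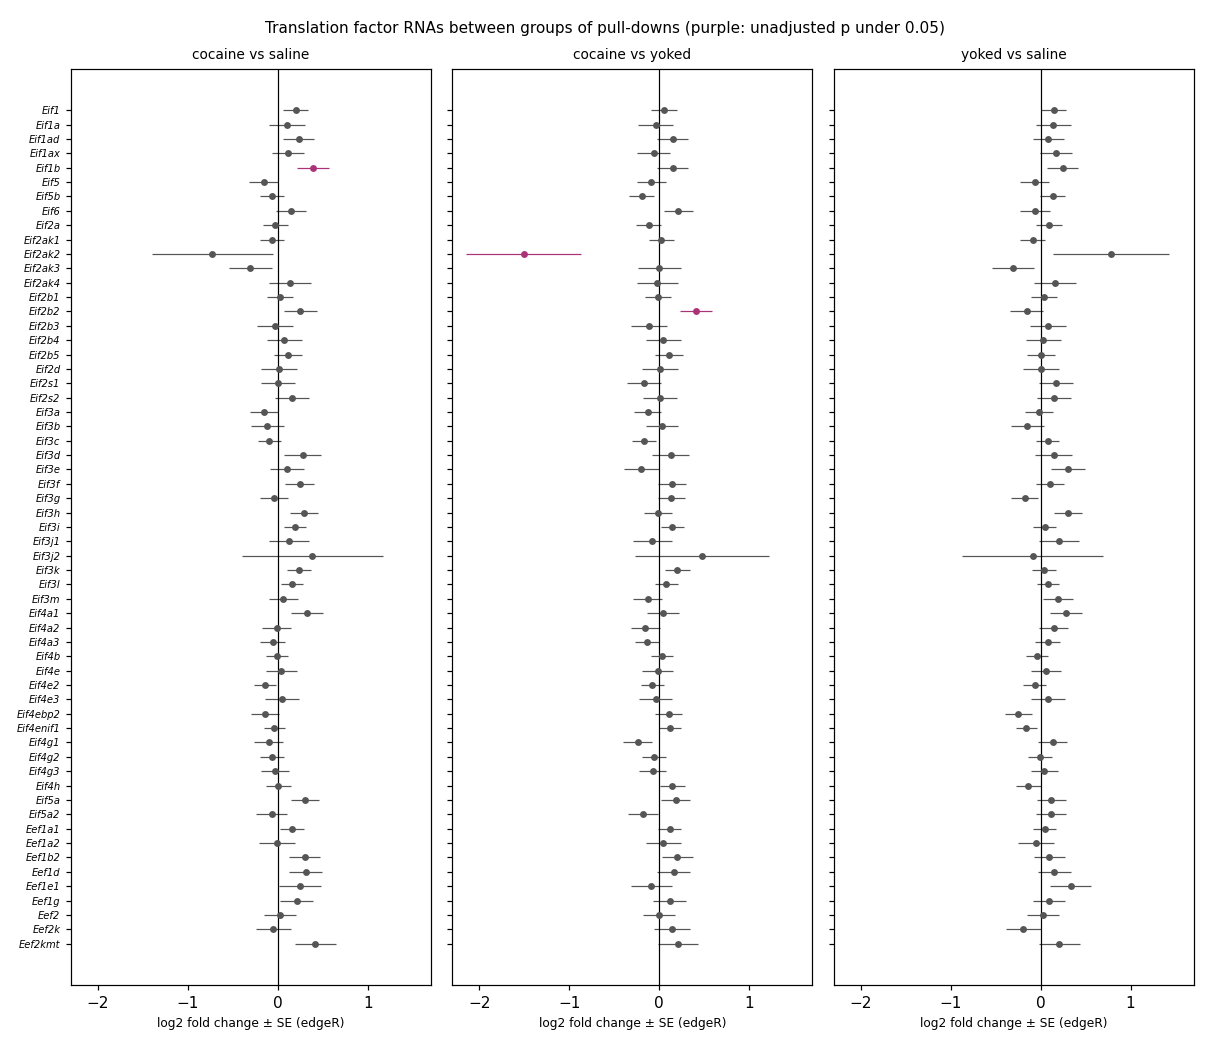
Log2 fold change with its standard error from edgeR for 59 translation factor RNAs in 3 comparisons of pull-down groups (n = 3 libraries each). None passed an adjusted p of 0.05, and the purple points mark Eif1b, Eif2b2 and Eif2ak2 at an unadjusted p under 0.05.

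The members' median log2 fold change stayed close to 0 in each comparison, and its sign was not the same under every setting. It was 0.05 in cocaine against saline, 0.01 in cocaine against yoked and 0.08 in yoked against saline, where all genes had 0.00, -0.03 and 0.03. The share of members above 0 was 61.0%, 55.9% and 71.2%, against 50.6%, 45.5% and 55% of all genes. With library totals in place of TMM factors those shares were 49.2%, 50.8% and 59.3%. In cocaine against saline the median was then -0.01. Without yoked 3 the share was 72.9% in cocaine against yoked and 52.5% in yoked against saline, and without all 3 libraries numbered 3 the latter was 40.7%, at a median of -0.04. In yoked against saline, marker genes of several other cells were above 0 as well. These were 6 of 6 astrocyte (median 0.62), 6 of 6 oligodendrocyte (0.57), 4 of 5 microglia (0.57) and 4 of 4 cortical glutamatergic genes (0.58). Of the D2 neuron genes, 4 of 5 were above 0 (0.30). Endothelial and mural genes were mixed there, with 3 of 5 above 0 (0.13). In cocaine against saline the 4 cortical genes were above 0 (0.49) and all 5 endothelial and mural genes below it (-0.51). There, 2 of 6 astrocyte, 3 of 6 oligodendrocyte, 2 of 5 microglia and 3 of 5 D2 neuron genes were above 0. In cocaine against yoked the astrocyte, oligodendrocyte, microglia and D2 neuron medians were -0.67, -0.52, -0.73 and -0.36. The endothelial and mural median was then -0.53. None of these markers was called, and their part in the members' shares was not tested. No gene was called in any comparison, so neither were mTORC1 genes (14), stress-response targets (10) or the other translation factors (19). An edgeR unadjusted p under 0.05 was reached by 0 mTORC1 genes. It was reached by 1 stress-response target, in cocaine against saline only, and by 1 other translation factor in each comparison. Of all genes, 1.79% were higher and 1.05% lower at that threshold in cocaine against saline. The shares were 1.36% and 1.22% in cocaine against yoked, and 1.16% and 0.681% in yoked against saline. The 11 oligopyrimidine members had median log2 fold changes of 0.16, 0.08 and 0.09 in the same order, and 0 of them reached an unadjusted p under 0.05.

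Paired ratios were compared between groups over 3 libraries each. Of 24 comparisons (8 pairs in 3 comparisons), 3 had groups that did not overlap (12.5%), each at the smallest possible two-sided exact permutation p of 0.1, with adjusted p of 0.8. With 3 libraries in each group, any groups that do not overlap have an exact permutation p of 0.1. No share over other gene pairs is given, and the count was not read as a result. The log2 ratio of Eif4a2 to Eif4a1 was 2.61 ± 0.08 in cocaine, 2.95 ± 0.26 in saline and 2.82 ± 0.14 in yoked (SD, n = 3). Its cocaine values lay below both other groups by a narrow margin, with 2.70 in cocaine 2 against 2.73 in yoked 3 and 2.73 in saline 1. The log2 ratio of Eif4g3 to Eif4g1 was 0.93 ± 0.03 in cocaine and 0.85 ± 0.04 in saline.

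**Figure D4:**
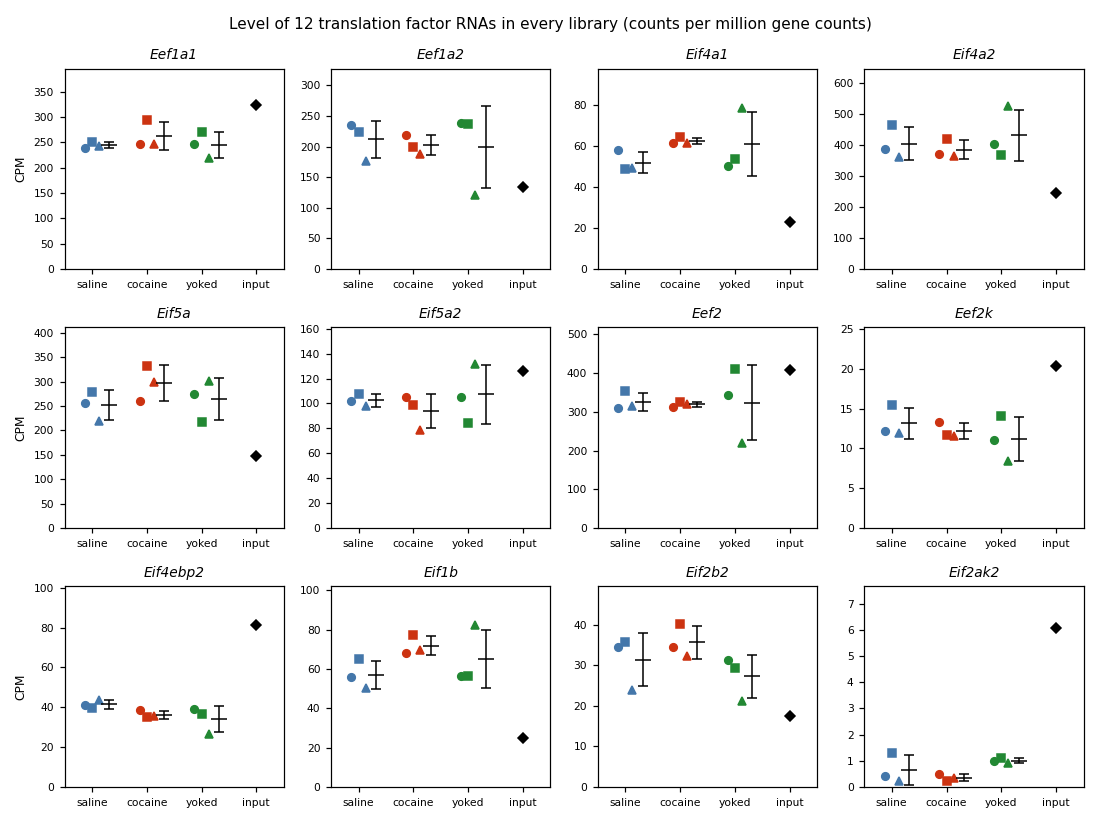
CPM of 12 translation factor RNAs in every library, with the mean and SD of each group of 3 pull-downs beside its points and the single input as a diamond. Eef1a1, Eef2k, Eif4ebp2 and Eif2ak2 lie below the input in all 9 pull-downs, and for Eef1a2 and Eef2 yoked 3 lies below the other 8.

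Yoked 3 stood apart from the other pull-downs. The deviations of 57 members (at least 50 counts on average) from their means over the pull-downs had an SD of 0.33 on the log2 scale there. In the other 8 libraries it was 0.10 to 0.20. Over all genes with as many counts the SD was 0.47 in yoked 3 and 0.20 to 0.33 in the others, so the wide spread was not particular to the members. Of these members 18 had their highest value in yoked 3 and 14 their lowest (31.6% and 24.6%, against 25.8% and 27.7% of all genes). The largest deviations there were Eef1e1 (0.67), Eif3e (0.66), Eif2s1 (0.58), Eif1a (0.51) and Eif4a1 (0.51) upward, and Eef1a2 (-0.66), Eif3b (-0.50), Eef2 (-0.48), Eif2b2 (-0.48) and Eef2k (-0.44) downward. Yoked 3 also had the highest sums of D1 neuron (3212 CPM) and cortical (112 CPM) markers and the lowest of oligodendrocyte (183 CPM) and microglia (3.49 CPM) markers among the pull-downs, and the part of this in the deviations was not tested. Across the pull-downs the coefficient of variation ran from 5.24% for Eif3l to 22.4% for Eef1e1. The median correlation between pairs of members over the 9 libraries was 0.03, a description over libraries that include yoked 3. No value for all genes is given beside it, and a median near 0 can hide sets of members that moved together.

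In saline 3 and cocaine 2 the deviations followed gene span. The rank correlation of span with deviation was 0.62 over 57 members in saline 3 (0.26 over 11558 genes) and -0.57 in cocaine 2 (-0.42), again a description across genes. Of the 19 shortest members, 2 were above their mean in saline 3 (median deviation -0.21) and 18 in cocaine 2 (median 0.23). The 19 longest had medians of 0.01 and 0.04 in those libraries. In cocaine 3 the median of the shortest 19 was 0.11 and 16 of them were above 0. The part of these libraries in the cocaine and saline differences of short genes such as Eif1b was not tested beyond leaving out each library, under which Eif1b ran from 0.33 (without cocaine 2) to 0.49 (without saline 2).

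**Figure D5:**
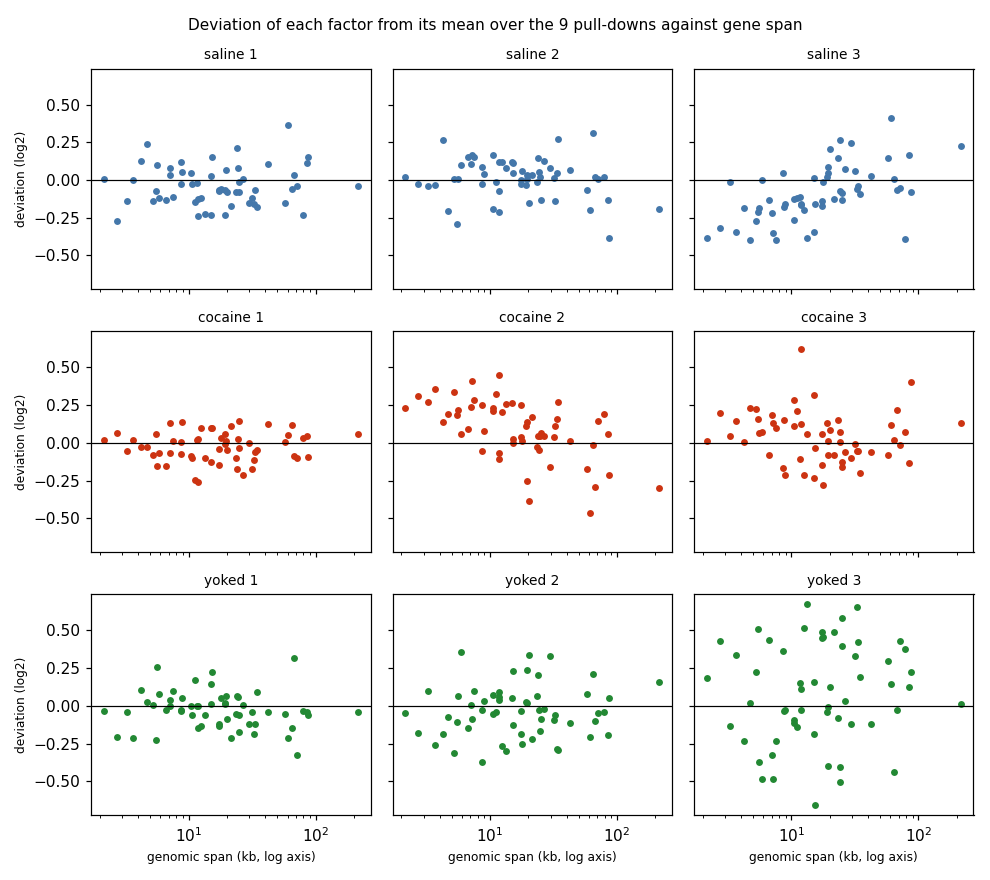
Deviation (log2) of 57 translation factor RNAs from their mean over the 9 pull-downs against the genomic span of the gene (kb, log axis), 1 panel per library. Short genes lie low in saline 3 and high in cocaine 2, and points scatter most in yoked 3.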

How the data were processed

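Polysomal RNA from 9 pull-downs and RNA from 1 input were sequenced. The deposited values are whole-number counts per gene, which the authors made from alignments to mm10 with STAR 2.0.0e and HTSeq according to the submitters' processing notes. The counting mode, strand setting and annotation were not given in the sources used here. The 6 summary rows that name no gene were left out, among them reads with no feature (12.3% to 16.1% of uniquely placed reads in pull-downs, 27.6% in the input). Intervals from depth would cover counting error only. The main test between groups was edgeR's (version 4.0.16, R 4.3.3; quasi-likelihood, robust, TMM, filterByExpr, 9 pull-downs, group only, Benjamini-Hochberg over 14680 genes), tested on simulated data. Ratios to the input used CPM plus 0.5, for genes with a mean of at least 10 counts. Alternatives were DESeq2 1.42.0, limma-voom 3.58.1, other scalings, no filter, a replicate block and left-out libraries. Values in every library are given for paired factors, eIF2 kinases, Eef2, Eef2k, Eif2s1, Eif4b, the 3 smallest p per comparison and the 5 highest and lowest ratios (mean count at least 50). The members and lists were chosen with earlier results of these data known. Gene positions, spans and start sequences are RefSeq's, GRCm38.p6, and all 62 members matched by symbol.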

Additional observations from a re-analysis of the deposited data

Results flagged for a closer look

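In 36 series of 9 pull-down to input ratios, 5 had 1 library far from the other 8. Chance flags about 1 in 20 such series, and the 9 pull-downs span 3 groups. Yoked 3 was the library in 4 of them. Its log2 ratio was -0.15 for Eef1a2 (others 0.39 to 0.82), -0.90 for Eef2 (others -0.40 to 0.01), 1.11 for Eif2s1 (others 0.40 to 0.66) and -1.59 for Eif4ebp2 (others -1.21 to -0.89). Saline 3 was the library for Eif1, at 0.66 (others 1.01 to 1.26).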

How the results depend on the processing

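No member was called between groups under any of 17 alternatives in each comparison. Medians ran from -0.01 to 0.09 (cocaine against saline), 0.00 to 0.07 (cocaine against yoked) and -0.04 to 0.10 (yoked against saline). In the same order, up to 5, 6 and 3 members had an unadjusted p under 0.05. The 5 and 6 came without yoked 3, beside 1001 and 1025 of 15072 genes. Fitting only the 2 groups compared also gave 5, beside 840 of 14124 genes. The 3 came without yoked 1, beside 589 of 15053 genes. Leaving out all libraries numbered 3, chosen after seeing the data, gave the -0.04. Members above the input numbered 3, and below it 1, at 2-fold in place of 1.5-fold, and 21 and 4 of 60 by edgeR against the lone input, assumed to vary like the pull-downs (background 15.1% and 23.7% of 17354 genes). Other scalings, a pseudocount of 2 CPM and left-out libraries gave 10 to 14 above and 2 below. For these counts and the 2-fold counts no share over all genes is given. The number of paired ratios without overlap was 3 to 7 with 1 library left out, where fewer samples separate more easily (5 without saline 3, 7 without cocaine 1, 5 without cocaine 3, 6 without yoked 1).

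With the replicate block, 7 of 24 comparisons of paired ratios kept 1 sign within every number. With only 3 numbers a sign is easily kept, so this count was not read as a result. The block called 0 members. Over 11895 genes, deviations of same-numbered libraries correlated at -0.06 to 0.36 (7 of 9 pairs over 0.1; -0.06 to 0.12 for number 1, 0.14 to 0.32 for number 2, 0.26 to 0.36 for number 3) and of others at -0.33 to 0.19. All libraries except cocaine 1 correlated best with their own number (8 of 9), a hint from the data; the labels give no pairing, and the numbers were not taken as pairs. Over only the members among these genes, same-numbered libraries correlated at -0.32 to 0.64 and others at -0.56 to 0.39. Depth limits Eif2ak2, Eif3j2, Eif4ebp1, Eif4ebp3 and Eif4e1b.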
